A study of Homo sapiens with 25 samples.

Results

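CUX1, SKAP1, ST3GAL3, ABTB2 and ANO1 were examined as 5 genes at which regions of MLL4 binding recurred in control cells and were missing from cells given FOXD2. They are 5 of the 19974 protein-coding genes of the RefSeq table, of which 14238 had an MLL4 region in the window used. For each gene, the peaks of 18 ChIP-seq lists that overlapped the gene span extended by 20 kb on either side were collected by mark and group (hg38). The genes were chosen by the MLL4 peaks of these same lists, so the MLL4 differences below are a description without a test. HCT116 is an established human colorectal carcinoma line. Control cells had been transduced with the empty pSin lentivirus and FOXD2 cells with pSin carrying the full FOXD2 coding sequence, and both were kept under puromycin. Each group gave 2 libraries for H3K4me1, 2 for H3K27ac and 2 for MLL4, and a single one for H3K4me3. A separate set of cells received the plasmid pcDNA3.1-FOXD2-3xflag-6xhis, and the tags on FOXD2 were precipitated in 2 libraries with a 6xHis antibody and 2 with a FLAG antibody. No library of untagged cells is set beside them here. Chromatin for the histone marks was native and cut with MNase, while that for MLL4 and the tags was fixed with formaldehyde and sonicated. Peak lists do not give the level of FOXD2, and the FOXD2 cells held the vector copy beside the cells' own gene.

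MLL4, encoded by KMT2D, is a methyltransferase that places H3K4me1 at enhancers, and H3K27ac marks the enhancers and promoters that are active. H3K4me3 marks the promoters of active genes, and is also found at low level on some strong enhancers. FOXD2 is a forkhead transcription factor. The genes have separate roles. CUX1 encodes a homeodomain transcription factor with CUT repeats, SKAP1 an adaptor of T cell receptor signalling, ST3GAL3 a Golgi sialyltransferase, ABTB2 a protein with ankyrin repeats and BTB domains, and ANO1 a calcium-activated chloride channel. All 5 are long. The gene span is 467.952 kb for CUX1 (chr7:101816007-102283958), 311.62 kb for SKAP1 (chr17:48133442-48445061) and 223.624 kb for ST3GAL3 (chr1:43707536-43931159). It is 207.024 kb for ABTB2 (chr11:34150987-34358010) and 223.534 kb for ANO1 (chr11:69965997-70189530).

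The promoters of ABTB2 and CUX1 are shown because they are the ones, among those the RefSeq promoter table gives for these genes, that an MLL4 region overlapped. Each runs 5′ to 3′ from 250 bases before the start to 50 after it (GRCh38.p14), and capitals mark the bases inside the MLL4 region. The ABTB2 promoter, chr11:34357961-34358260 on the minus strand, overlapped a region called in both control lists and neither FOXD2 list. The second CUX1 promoter, chr7:101817376-101817675 on the plus strand, overlapped a region called in control replicate 1 alone.
ABTB2: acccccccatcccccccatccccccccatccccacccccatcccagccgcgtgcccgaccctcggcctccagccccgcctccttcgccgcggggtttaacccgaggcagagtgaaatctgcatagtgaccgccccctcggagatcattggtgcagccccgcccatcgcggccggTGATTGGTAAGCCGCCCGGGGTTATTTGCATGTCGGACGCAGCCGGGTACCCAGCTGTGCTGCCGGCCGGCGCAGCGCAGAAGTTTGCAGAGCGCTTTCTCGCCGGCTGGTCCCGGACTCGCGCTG
CUX1: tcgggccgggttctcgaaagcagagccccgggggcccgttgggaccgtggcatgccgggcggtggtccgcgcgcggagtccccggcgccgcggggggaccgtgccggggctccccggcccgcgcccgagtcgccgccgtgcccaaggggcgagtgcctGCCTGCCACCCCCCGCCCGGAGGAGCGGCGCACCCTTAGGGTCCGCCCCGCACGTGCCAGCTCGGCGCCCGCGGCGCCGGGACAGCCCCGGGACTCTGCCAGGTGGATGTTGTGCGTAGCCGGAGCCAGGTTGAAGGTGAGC
The ABTB2 promoter held 30 CpG and the CUX1 promoter 42, against a median of 14 over 34961 promoters of the table. The first CUX1 promoter and the ST3GAL3 promoter held 39 each, and the ANO1 promoter 36. The forkhead motif TGTTTAC and the AP-1 motif TGANTCA, searched on both strands, were in none of these 5 promoters. They were in 3.42% and 7.68% of all promoters of the table.

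The MLL4 lists differed in length, with 16046 and 13571 peaks in control and 22493 and 4676 in FOXD2 cells. FOXD2 replicate 2 therefore stands apart as by far the shortest list, and replicate 1 as the longest. Peaks were deposited per library at a q of at most 0.01, and read depth is unknown, so list length stands in for it. H3K4me3 peaks lay in both lists within 10 of 12 marker genes of colon epithelium, 2 of 12 of T and blood cells and 5 of 9 of fibroblasts and endothelium. Whether replicates came from separate cultures is not stated, so a p-value here covers the spread between libraries, which may be technical. The exact permutation test of 2 lists against 2 gives p = 0.333 at best, so no group difference can pass the usual threshold.

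After the 4 MLL4 lists were merged into regions, the 5 windows held 79 regions, of which 21 were control-only, that is called in both control lists and neither FOXD2 list. CUX1 had 6 such regions, ST3GAL3 5, ABTB2 4, and SKAP1 and ANO1 3 each. The reverse class, called in both FOXD2 lists and neither control list, had 1 region, in ABTB2, and was found at 2.73% of genes with an MLL4 region. Regions of all 4 lists numbered 6, of which ABTB2 held 4. Among all 35854 MLL4 regions, 2559 were control-only, 402 FOXD2-only and 2183 in all 4 lists. At least 3 control-only regions were found at 0.625% of the 14238 genes, and at 1.89% of the 1060 genes of at least 200 kb, a length that all 5 genes pass. The rule used this contrast, and nothing is read from these shares. The genes are not the only ones with such counts: 8 other genes held 4 control-only regions, among them CMIP, HIVEP3, METRN, PRKAG2 and SHB, and 76 others held 3, as SKAP1 and ANO1 did.

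**Figure D1:**
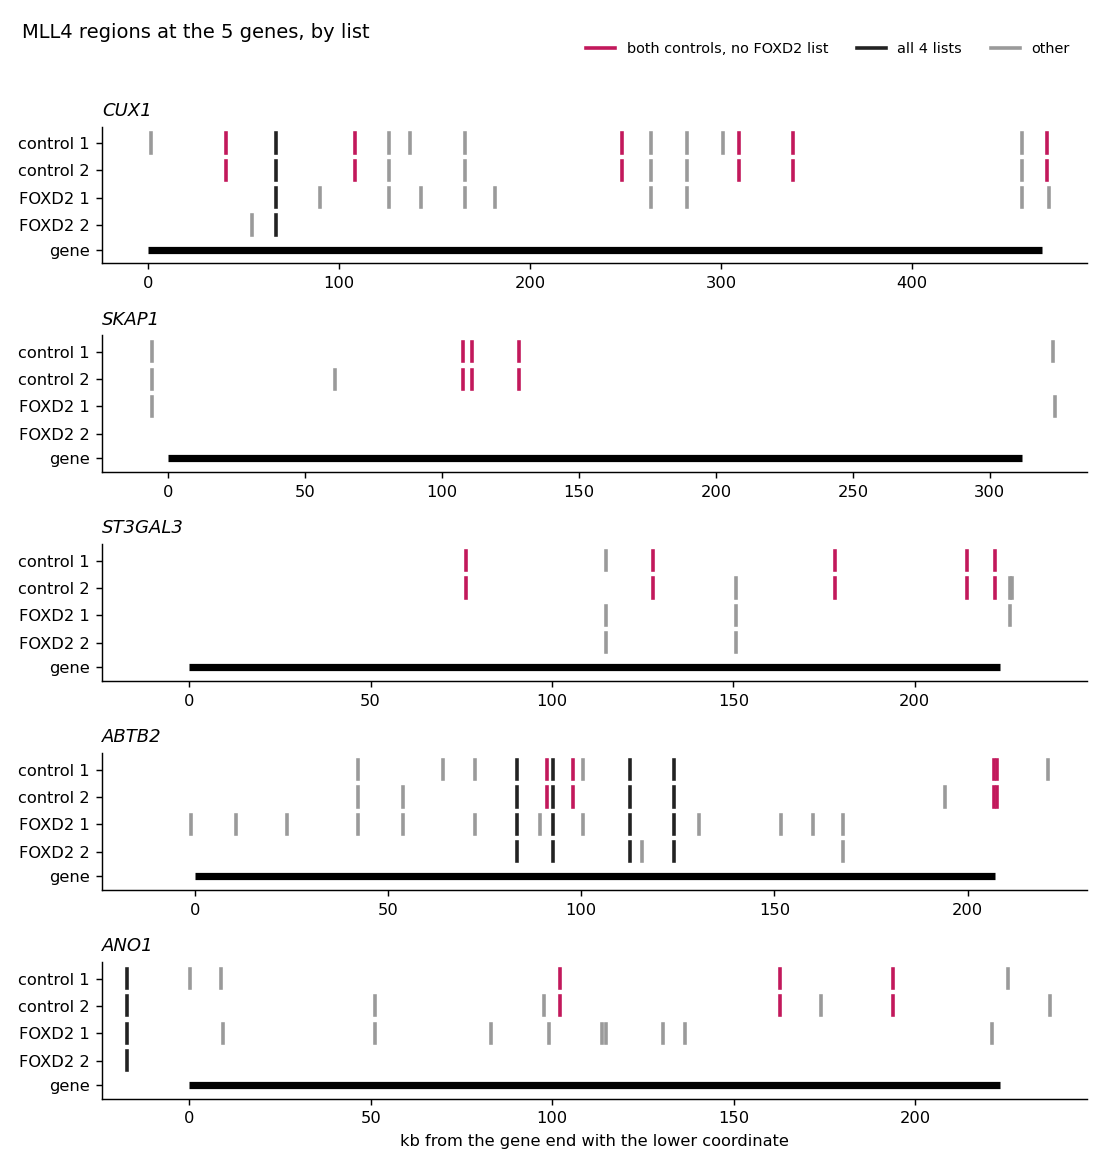
MLL4 regions at the 5 genes, by distance in kb from the gene end with the lower coordinate (black bar: gene), with 1 row per list; ticks mark region centres and their width is not to scale. The 21 control-only regions (red) lie along the genes, those of SKAP1 within 21.0 kb and those of CUX1 over 430 kb, and 3 of the 4 ABTB2 regions of all lists (black) lie between its control-only regions.

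Peak number followed the label at CUX1, SKAP1 and ST3GAL3 and not at ABTB2 and ANO1. CUX1 had 15 and 12 MLL4 peaks in the control lists and 10 and 2 in the FOXD2 lists. SKAP1 had 5 and 5 peaks in control, then 2 and 0 in FOXD2 cells. ST3GAL3 had 6 and 8 peaks in control and 3 and 2 in FOXD2 cells. At these 3 genes both control lists lay above both FOXD2 lists, as they did at 10.1% of genes with an MLL4 region, and the reverse, found at 1.22%, was seen at 0 of 5. ABTB2 had 13 and 11 peaks in control, but 16 and 6 in FOXD2 cells. ANO1 had 7 and 9 peaks in control and 11 and 2 in FOXD2 cells. At both, FOXD2 replicate 1 held more peaks than either control list and replicate 2 fewer, so the groups overlapped. Of the 20 regions that FOXD2 replicate 1 alone held, 8 were at ANO1 and 7 at ABTB2. The label therefore describes single regions at ABTB2 and ANO1, not the number of MLL4 peaks over the gene.

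**Figure D2:**
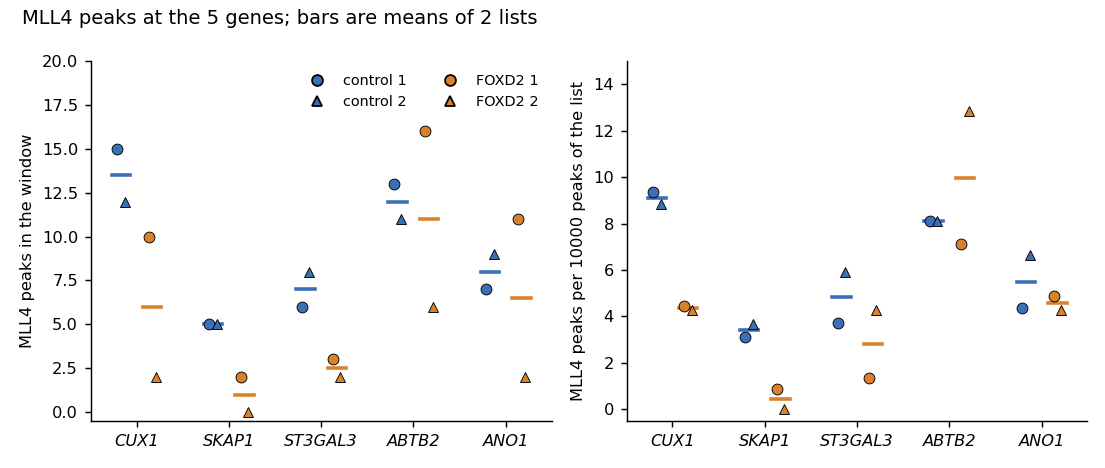
MLL4 peaks in the window of each gene, as a number (left) and per 10000 peaks of the list (right), for control replicates 1 and 2 (blue) and FOXD2 replicates 1 and 2 (orange); bars are the means of 2 lists. Per 10000 peaks, CUX1 stood at 9.35 and 8.84 in control against 4.45 and 4.28 in FOXD2 cells, while the groups overlapped at ST3GAL3, ABTB2 and ANO1.

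Scaling by list length separated the genes further, though no share over all genes was computed for it. Per 10000 peaks of each list, CUX1 had 9.35 and 8.84 peaks in control and 4.45 and 4.28 in FOXD2 cells, and SKAP1 3.12 and 3.68 against 0.889 and 0. ST3GAL3 no longer separated, with 3.74 and 5.89 in control and 1.33 and 4.28 in FOXD2 cells. The groups also overlapped at ABTB2, at 8.10 and 8.11 against 7.11 and 12.8, and at ANO1, at 4.36 and 6.63 against 4.89 and 4.28.

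The number of control-only regions depends on how many peaks each list holds. When each MLL4 list was reduced to its 4676 strongest peaks, the 5 genes held 8 control-only regions: 4 at CUX1, 2 at ST3GAL3, 1 each at SKAP1 and ANO1, and 0 at ABTB2. Genome-wide that setting gave 775 control-only and 454 FOXD2-only regions. Leaving out FOXD2 replicate 2, the short list, left the count at 21, which means that no region was called in both controls and that list without FOXD2 replicate 1. That setting can only keep or raise the count. Without FOXD2 replicate 1, CUX1 had 11 instead of 6, because 5 of its regions were called in both controls and in that list only. ANO1 had 6 instead of 3 without control replicate 1 and without control replicate 2. CUX1 had 9 without control replicate 2, and ABTB2 6 in place of 4.

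Of the 21 control-only regions, 19 lay within the span of their gene. In CUX1, 5 lay inside the gene centred between 40.91 and 337.63 kb from the end with the lower coordinate, and the sixth, chr7:102286364-102286667, lay beyond its end in SH2B2, which encodes a signalling adaptor. That sixth region was the weakest of the 21 in control replicate 1, with a deposited −log10 q of 2.02, and had 4.71 in replicate 2. The strongest CUX1 region by its ranks in both control lists was chr7:102125068-102125667, with −log10 q of 8.16 and 18.8. CUX1 also held an MLL4 region of all 4 lists, chr7:101882615-101883181, with −log10 q of 22.3 and 19.4 in control and 9.39 and 7.53 in FOXD2 cells. A tag site lay over that region.

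The 3 SKAP1 regions formed the tightest group, within 20.969 kb of the gene's interior. The first of them, chr17:48240792-48241504, was the strongest of all 21 in control replicate 1, with −log10 q of 23.2, and had 19.6 in replicate 2. All 4 tag lists also had a peak there, in a tag site of 1705 bp at chr17:48239996-48241700. The second, chr17:48244138-48244582, had −log10 q of 5.74 and 4.24 and overlapped peaks of 2 tag lists. The third, chr17:48261471-48261760, had 8.11 and 6.23 and no tag peak. No MLL4 peak was called anywhere in the SKAP1 window in FOXD2 replicate 2, and the 2 peaks of replicate 1 lay outside the gene span. SKAP1 is known for its role in T cells; its H3K4me3 peak inside the gene, chr17:48429429-48430586 in control, had a deposited fold enrichment of 30.2 in control and 28.8 in FOXD2 cells.

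ST3GAL3 had the highest share of control-only regions, 5 of its 9. The strongest, chr1:43929367-43930180, lay at the far end of the gene from its listed promoter, 221.781 kb away, with −log10 q of 10.8 and 22.1. The next, chr1:43834924-43835587, had 9.84 and 19.8. The remaining 3 had values between 3.32 and 11.8. Both FOXD2 lists shared 2 other regions in this gene with 1 of the control lists each, so MLL4 peaks were still called there in FOXD2 cells.

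The 4 ABTB2 regions lay in 2 places. A pair, chr11:34357726-34358086 over the promoter printed above and chr11:34358350-34358851 beside it, had −log10 q between 4.47 and 6.79 in the control lists. Another pair, chr11:34242038-34242432 and chr11:34248555-34249056, lay on either side of an MLL4 region of all 4 lists, chr11:34243146-34244203. That shared region had −log10 q of 18.5 and 14.9 in control and 8.52 and 16.5 in FOXD2 cells. The control-only pair beside it had values between 3.68 and 9.18. The control-only regions of ABTB2 were all weaker than its 4 shared regions, which ran from 9.36 to 42.0 in the control lists. The FOXD2-only region of ABTB2, chr11:34318596-34318991, had −log10 q of 3.30 and 4.79, and peaks of 2 tag lists lay over it.

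ANO1 had its 3 control-only regions in the interior of the gene. The strongest, chr11:70128296-70129166, had −log10 q of 9.72 and 10.7. The others, chr11:70067789-70068389 and chr11:70159358-70160467, had values between 4.44 and 9.59. The region of all 4 lists near this gene, chr11:69947677-69949900, was centred 17.2 kb outside it. Over all 21 control-only regions the median −log10 q was 8.16 and 9.18 in the control lists, above 6.31 and 7.55 for all control-only regions and below 12.9 and 17.5 for the regions of all 4 lists.

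H3K4me1 and H3K27ac, which the choice of genes did not use, were still called at most of these 21 regions in FOXD2 cells. H3K4me1 peaks of all 4 lists overlapped all 21, against 90.8% of all control-only MLL4 regions. H3K27ac peaks of all 4 lists overlapped 19 of 21, against 66.4% of all control-only regions. The first exception was the second SKAP1 region, where FOXD2 replicate 1 alone had H3K27ac. The other was the strongest ANO1 region, where that library alone had none. Overlap by 1 bp counted, so it shows neither that a region lay wholly inside a peak nor how strong the mark was. The listed ABTB2 promoter, of which 126 bases lay in a control-only region, had no H3K4me1 or H3K27ac peak in any list.

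H3K4me3 differed between its 2 lists at these regions. The control list had a peak at 15 of the 21 regions (71.4%) and the FOXD2 list at 8 (38.1%), and those 8 were among the 15. Over all 2559 control-only regions the shares were 72.1% and 62.0%. The 7 regions with H3K4me3 in control alone were 3 in ST3GAL3, 2 in CUX1 and 2 in ANO1. Their peaks in the control list were weak: at ST3GAL3 the fold enrichments were 6.50, 6.84 and 4.03, against 149 at the promoter. With H3K4me3 peaks held to a −log10 q of at least 5, or with lists of equal length, the counts were 13 and 8. A single list per group gives no replicate check.

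**Figure D3:**
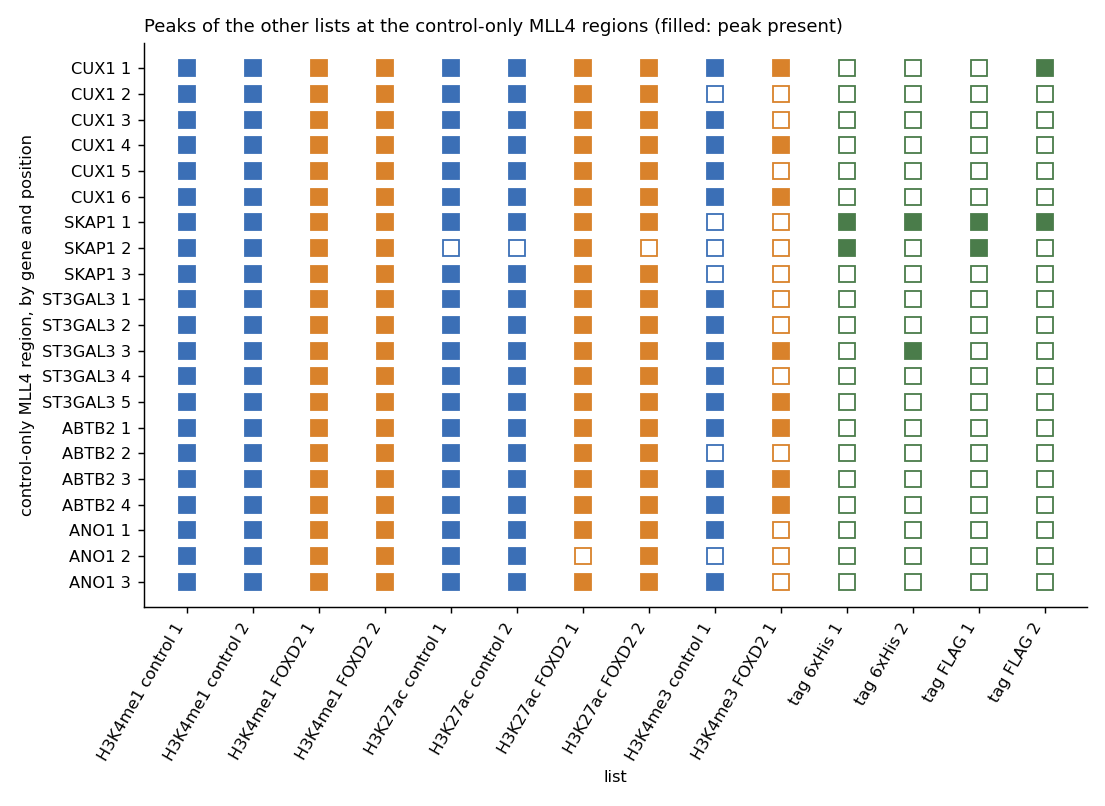
Peaks of the histone and tag lists at the 21 control-only MLL4 regions (rows, numbered by position within each gene); a filled square is a peak in that list overlapping the region by at least 1 bp, in control (blue), FOXD2 (orange) or tagged (green) cells. H3K4me1 is filled throughout, H3K4me3 at 15 regions in control and 8 in FOXD2 cells, and tag peaks at 4 regions.

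Few tag peaks lay at the control-only regions. At 17 of 21 no tag list had a peak, against 60.5% of all control-only regions without one. The 4 with a tag peak were the first and second SKAP1 regions, 1 region in CUX1 with a single tag list and 1 in ST3GAL3, also with a single list. Across the windows, SKAP1 held 38 tag regions, CUX1 22, ABTB2 15, ST3GAL3 9 and ANO1 2. Sites of all 4 tag lists numbered 3 at SKAP1 and 2 at CUX1, and 0 at the other genes. At least 1 such site was found at 20.6% of all protein-coding genes. That share covers genes of any length, and none was computed for long genes alone. The 5 sites became 1 when peaks needed a −log10 q of at least 5, and 9 without 6xHis replicate 2, of which 6 were at SKAP1. Besides the MLL4 region above, SKAP1 held a site of all 4 lists at chr17:48265686-48266655, which H3K4me1 and H3K27ac peaks of every list overlapped. Another, chr17:48318142-48318899, had no histone mark called. In CUX1 the second site, chr7:101835076-101835801, had H3K4me1 in 3 lists and neither H3K27ac nor MLL4.

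Over the whole gene windows H3K4me1 was more extensive in FOXD2 cells at 3 of the 5 genes and less extensive at ANO1. Both FOXD2 lists covered more kb than both control lists at CUX1, ST3GAL3 and ABTB2, against 42.7% of the 17987 genes with H3K4me1. The reverse, at ANO1, was found at 11.2% of genes. These shares, and those given below for H3K4me1 and H3K27ac, cover genes of any length, and none was computed for long genes alone. At ABTB2, H3K4me1 peaks covered 74.0 and 62.3 kb in control and 137 and 147 kb in FOXD2 cells, 2.08-fold more on average (exact permutation p = 0.333). The FOXD2 lists stood far above the control lists at this gene although the number of peaks overlapped, at 37 and 31 in control and 35 and 43 in FOXD2 cells. The peaks were wider: the widest, in the middle of the gene around the control-only pair, measured 11.9 and 12.0 kb in control and 17.98 and 24.2 kb in FOXD2 cells.

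ST3GAL3 had 56.1 and 53.7 kb of H3K4me1 in control and 73.9 and 81.4 kb in FOXD2 cells. CUX1 had 148 and 132 kb in control and 152 and 175 kb in FOXD2 cells, so the groups were separate by a small margin. With lists of equal length the CUX1 difference was 9.08 kb in place of 23.9 and the groups overlapped (exact permutation p = 0.667), which leaves ST3GAL3 and ABTB2 as the genes with more cover in both FOXD2 lists. The widest H3K4me1 peaks of CUX1 measured 16.8 and 14.8 kb in control and 10.4 and 10.7 kb in FOXD2 cells. They lay at different places, in replicate 1 at chr7:101939589-101956375 in control and chr7:102091918-102102284 in FOXD2 cells. These widths therefore do not describe the same peak. SKAP1 covered 52.8 and 46.4 kb in control and 46.0 and 50.5 kb in FOXD2 cells, and the groups overlapped. With lists of equal length both control lists of SKAP1 lay above both FOXD2 lists, by 4.90 kb on average (exact permutation p = 0.333). No share over all genes was computed for lists of equal length. Its widest peak, which held the first and second control-only MLL4 regions, was 11.7 and 12.2 kb in control and 12.2 and 12.2 kb in FOXD2 cells.

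ANO1 was the gene with less H3K4me1 in FOXD2 cells. Its peaks covered 61.7 and 53.1 kb in control and 43.3 and 36.0 kb in FOXD2 cells, 0.691 times as much on average (exact permutation p = 0.333). Both control lists lay above both FOXD2 lists. Peak number was likewise lower in both FOXD2 lists, at 32 and 33 in control and 27 and 25 in FOXD2 cells, although the FOXD2 lists were the longer ones for this mark. Within 5 kb windows centred on its 3 control-only MLL4 regions, H3K4me1 covered a mean of 69.2% and 55.2% in control and 45.8% and 38.7% in FOXD2 cells. At the 21 regions together the same means were 82.2% and 77.3% in control and 77.4% and 73.3% in FOXD2 cells, and these groups overlapped. The 5 kb windows were chosen after the values were seen.

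Counted by number, H3K4me1 peaks were more in both FOXD2 lists at CUX1, SKAP1 and ST3GAL3, as at 30.4% of genes, and fewer at ANO1, as at 10.2%. CUX1 had 72 and 63 peaks in control and 76 and 96 in FOXD2 cells. SKAP1 had 33 and 28 against 34 and 39, and ST3GAL3 had 36 and 32 against 37 and 45. At these 3 genes the higher control list lay between 1 and 4 peaks below the lower FOXD2 list. The H3K4me1 lists themselves were longer in FOXD2 cells, at 114893 and 129887 peaks against 101204 and 95756. With lists of equal length the mean difference, FOXD2 minus control, was -7.0 peaks at CUX1, -2.5 at SKAP1 and 0.5 at ST3GAL3. The groups then overlapped at SKAP1 (exact permutation p = 0.667) and ST3GAL3 (exact permutation p = 1.0). At CUX1 both control lists then lay above both FOXD2 lists (exact permutation p = 0.333). The shares of genes given here are for the lists as deposited.

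**Figure D4:**
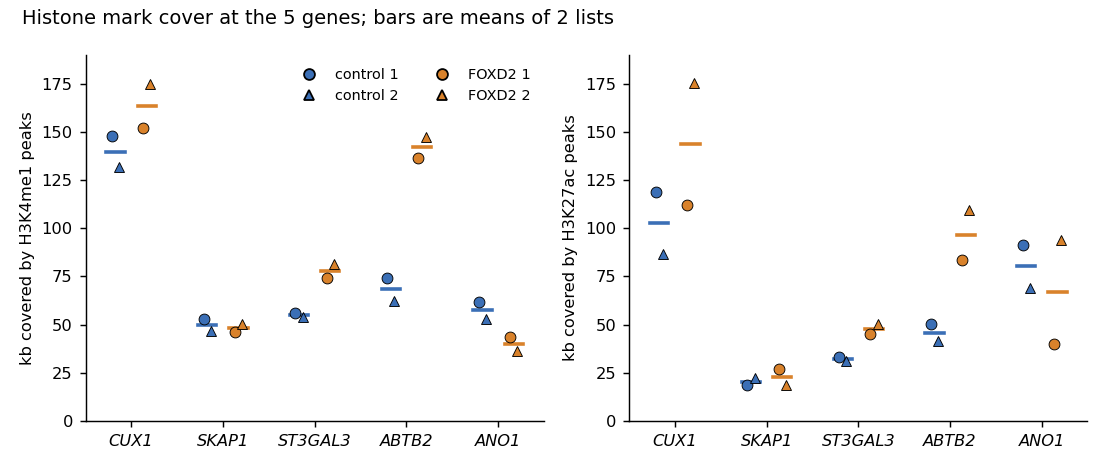
Kilobases of each gene window covered by H3K4me1 peaks (left) and H3K27ac peaks (right) in control replicates 1 and 2 (blue) and FOXD2 replicates 1 and 2 (orange); bars are the means of 2 lists. ABTB2 and ST3GAL3 lie higher in both FOXD2 lists for both marks, and ANO1 lies lower for H3K4me1, at 43.3 and 36.0 kb against 61.7 and 53.1 kb.

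H3K27ac cover, like that of H3K4me1, was higher in FOXD2 cells at ABTB2 and ST3GAL3. Both FOXD2 lists covered more kb than both controls at these 2 genes, against 28.3% of the 17643 genes with H3K27ac, and the reverse, found at 3.99% of genes, was seen at 0 of 5. At ABTB2, H3K27ac covered 50.4 and 41.2 kb in control and 83.4 and 109 kb in FOXD2 cells, 2.10-fold more on average (exact permutation p = 0.333). The widest H3K27ac peak of each list at this gene was 5.06 and 5.23 kb in control and 24.5 and 11.6 kb in FOXD2 cells. That of control replicate 1, chr11:34261729-34266790, lay apart from the others. ST3GAL3 had 33.0 and 31.1 kb in control and 45.1 and 50.1 kb in FOXD2 cells. It was also the only gene of the 5 with more H3K27ac peaks in both FOXD2 lists, at 30 and 23 in control and 34 and 36 in FOXD2 cells, as at 11.8% of genes, and 0 of 5 had fewer in both, as at 6.15%.

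At CUX1 the H3K27ac lists covered 119 and 86.7 kb in control and 112 and 175 kb in FOXD2 cells. SKAP1 had 18.7 and 22.1 kb in control and 27.02 and 18.5 kb in FOXD2 cells. ANO1 had 91.4 and 68.9 kb in control and 40.1 and 93.9 kb in FOXD2 cells. At these 3 genes the groups overlapped. Scaling by list length separated CUX1 and ANO1 in opposite directions. No share over all genes was computed for this scaling or for lists of equal length. Per 10000 peaks of each list, CUX1 had 8.62 and 8.505 H3K27ac peaks in control and 9.63 and 10.6 in FOXD2 cells. ANO1 had 5.85 and 5.71 in control and 4.11 and 5.04 in FOXD2 cells. With lists of equal length the kb covered at CUX1 was 33.2 higher in FOXD2 cells and the groups no longer overlapped (exact permutation p = 0.333). At ANO1 the order of the 4 values was that of the list lengths, which were 129995 and 85832 peaks in control and 85122 and 141008 in FOXD2 cells. With lists of equal length the ANO1 difference, FOXD2 minus control, was -12.5 kb against -13.2 with the lists as deposited, and the groups overlapped in both. The sign of the H3K27ac difference at ANO1 depended on 1 library: without FOXD2 replicate 1 the mean was 13.7 kb higher in FOXD2 cells.

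**Figure D5:**
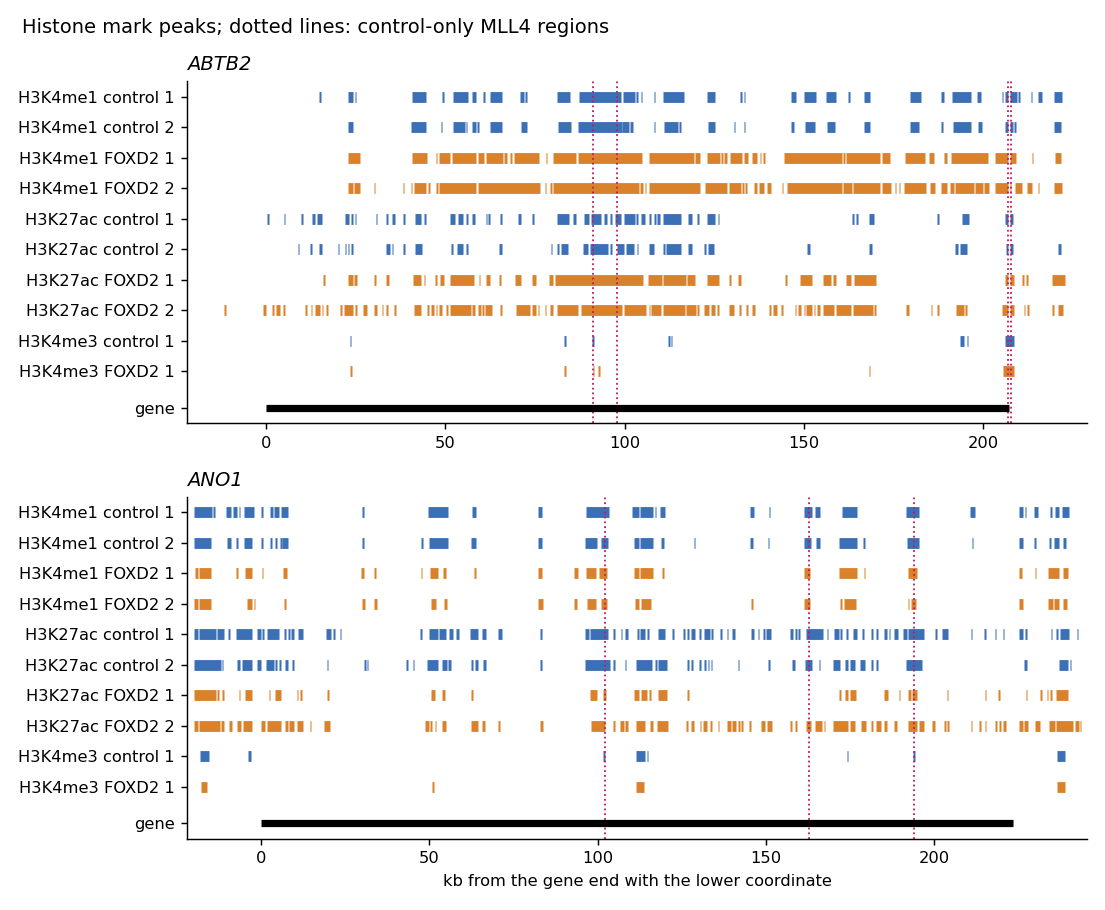
Histone mark peaks over ABTB2 and ANO1 in each list, by distance in kb from the gene end with the lower coordinate (black bar: gene); control lists are blue, FOXD2 lists orange, and dotted lines mark the control-only MLL4 regions. In ABTB2, H3K4me1 and H3K27ac peaks are wider in the FOXD2 lists around the middle of the gene, and in ANO1 the H3K4me1 peaks of the FOXD2 lists are fewer and cover less of the window.

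H3K4me3 covered fewer kb in the FOXD2 list at all 5 genes, as at 67.1% of the 15680 genes with H3K4me3, and the FOXD2 list was the shorter one. Peak number was lower at 4 of 5, against 19.6% of genes. That share covers genes of any length, and none was computed for long genes alone, so nothing is read from the contrast. ST3GAL3 had 9 peaks in control and 5 in FOXD2 cells, and ANO1 8 and 5. ABTB2 had 8 and 6 peaks, CUX1 20 and 18, and SKAP1 3 and 3. The strong promoter peaks were in both lists. At ABTB2 the promoter peak had a fold enrichment of 92.4 in control and 88.2 in FOXD2 cells, so the promoter under the control-only MLL4 region had a strong H3K4me3 peak in both. At ST3GAL3 the values were 149 and 118. The 300 bases listed as the ANO1 promoter had H3K27ac in every list and H3K4me3 in neither, while a peak inside the gene, chr11:70077445-70079946 in control, had a fold enrichment of 72.1 in control and 65.3 in FOXD2 cells.

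The related genes described here held at most 1 control-only MLL4 region each. Of the 9 other anoctamins, 7 had an MLL4 region and 4 of these had a control-only one, ANO2, ANO4, ANO8 and ANO10. Of the 19 other sialyltransferases, 12 had an MLL4 region and 3 a control-only one, ST3GAL4, ST6GALNAC3 and ST6GALNAC4. Of 9 adaptors related to SKAP1 in T cell signalling, 5 had an MLL4 region and 0 a control-only one, and of 11 BTB genes, all with MLL4 regions, 0 did. Of 9 genes around ANO1, all with MLL4 regions, FGF19 and SHANK2 had 1 each. At least 1 was found at 21.4% of all genes with an MLL4 region. H3K4me1 peak number was higher in both FOXD2 lists at 8 of 11 BTB genes, against 30.4% of all genes with the mark. The same count was 7 of the 17 sialyltransferases with H3K4me1, 2 of 8 anoctamins, 2 of 8 adaptors and 2 of 9 genes around ANO1. ABTB3, the closest relative of ABTB2 among the BTB genes, had 24 and 22 H3K4me1 peaks in control and 47 and 51 in FOXD2 cells. Its H3K27ac peaks, at 48 and 26 against 35 and 74, overlapped between groups. All these counts used the lists as deposited, which for H3K4me1 were longer in FOXD2 cells. Equal list lengths were not run for the related genes.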

How the data were processed

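The 18 peak lists of HCT116 cells were used as deposited, each from a single library; the other 7 of the 25 libraries, all inputs, were not used. The submitters' processing notes list MACS2 2.2.7.1, Bowtie2 2.3.4.1, cutadapt 3.4, bedtools and Picard, with hg38 as build. The authors deposited for each peak a fold enrichment as a ratio, a p-value and a q-value as −log10, and a score. These authors' values served only for describing, ranking or filtering the peaks of the same list. The largest deposited q was 0.0100. Which library served as background, and the read depth, are not given in the sources used here, so precision is limited by 2 lists per group.

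Between 1 and 35 peaks per list, those off chromosomes 1 to 22 and X, were dropped. Touching or overlapping peaks of a mark were merged into regions, and 1 bp of overlap put a region in a list. Gene spans came from the RefSeq table (GRCh38.p14), extended by 20 kb. Group means of peak number and kb covered were compared per gene by exact two-sided permutation tests, 10 for each measure, and the share of all genes whose lists did not overlap stands beside each count. The named genes were the 5 genes, the 5 next in number of control-only regions, 3 per gene of most similar pattern, and genes of related lists (64 genes) or marker lists (33 genes), all of which matched the table. The list of genes related to CUX1 is not reported here. The genes, lists and tests were chosen with earlier results of these data known. Promoter sequences were those of RefSeq; SKAP1 has none printed.

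Alternatives comprised peaks with −log10 q of at least 5, other windows (the span alone and 50 kb), equal list lengths, a merging gap of 500 bp, an overlap of 50%, each library left out, other tag sites, kb covered and a replicate block. The steps were tested on simulated lists. Python 3.11.15, numpy 2.4.6, pandas 2.3.3 and matplotlib 3.10.9 were used.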

Additional observations from a re-analysis of the deposited data

How the results depend on the processing

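The 21 control-only MLL4 regions became 8 with lists of equal length and ran from 21 to 30 with each library left out. The other settings gave 17 to 25. The 5 tag sites became 1 at −log10 q of 5 or more and 30 when 2 tag lists sufficed, and ran from 5 to 9 with a library left out. Summed over the 5 genes, FOXD2 cells had 30.0 more H3K4me1 peaks than control cells. With equal list lengths the difference was -25, and as kb covered it was 101. H3K27ac had a summed difference of 30.5 peaks, and 96.2 as kb covered, but it ran from -43.5 to 104.5 with a library left out, and was -14.0 without control replicate 2. The cause of these changes was not tested, beyond the lists being shorter in the equal-length setting.

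For single genes, 266 of 299 alternatives were labelled the same, 17 counts moved and 16 differences changed sign. Differences were judged by sign alone, so a much smaller difference of the same sign was labelled the same. Counts were judged by their ratio to the main value. Replicate-block alternatives were among the 299 and could not change sign. With equal list lengths, H3K4me1 peaks differed by -7.0 at CUX1, -2.5 at SKAP1 and -4.0 at ABTB2. At SKAP1 the difference was -1.36 as kb of H3K4me1, from -4.56 to 1.85 with a library left out, including 0.915. As kb of H3K27ac it was 2.38, -0.572 in the span alone, -2.25 at 50 kb, and from -1.88 to 6.63 with a library left out. ANO1 had a difference of 0.5 H3K27ac peaks at −log10 q of 5 or more, and from -27.5 to 8.5 with a library left out, including 4.0; its H3K27ac kb ran from -40.1 to 13.7. Leaving out a library gave -10.5 to 56.5 H3K27ac peaks at CUX1 and -8.5 to 31.5 at ABTB2. The kb covered at ABTB2 (H3K4me1 and H3K27ac) and the H3K4me1 values of ANO1 kept their sign under every alternative run for them. Sign was also kept at ST3GAL3 for H3K4me1 peaks and kb and for H3K27ac peaks, and at CUX1 for kb of H3K4me1. With equal list lengths the ST3GAL3 difference in H3K4me1 peaks was 0.5.

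Same-numbered libraries deviated together with a correlation of 0.192 for MLL4, 0.0191 for H3K4me1 and -0.399 for H3K27ac across 19974 genes, so the numbers were not taken as pairs. Replicate numbers follow the labels; for H3K27ac, H3K4me3 and MLL4 replicate 2 the names of the deposited peaks include a different number, so the numbering, and this check with it, is uncertain. For MLL4 the labels name a separate input for each replicate of each group. Whether same-numbered MLL4 libraries were made together is not stated, and no MLL4 difference was tested. The replicate block gave summed differences of 30.0 for H3K4me1 and 30.5 for H3K27ac. Any pairing must give these same values, so they are no check. Its exact sign-flip test cannot go below p = 0.5. A crossed pairing, added after seeing the data, has the same limit and could give no call either.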

Other observations

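EPCAM, a cell adhesion gene of epithelium and 1 of the 12 colon markers, held 3 control-only MLL4 regions in its window, as many as SKAP1 and ANO1, and KRT19, a keratin of simple epithelium, held 2. These genes were singled out after their values were seen. KRT8 and KRT18 held 1 each, and the other 8 colon markers held 0. At least 1 was found at 21.4% and at least 3 at 0.625% of all genes with an MLL4 region.

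Across the 18 lists, the genes whose log2(peaks + 1) followed each gene most closely were BLOC1S3 for CUX1 (Pearson r 0.986), PGAP4 for SKAP1 (0.979), RAB31 for ST3GAL3 (0.971), PTPA for ABTB2 (0.980) and HS1BP3 for ANO1 (0.990). These are descriptions over 18 lists that share the large differences in list length between marks, which raise every such correlation.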
